A study of Mus musculus with 6 samples.

Results

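Junctions that join an Sμ bait to the switch region Sγ1 in the minus orientation were examined in activated mouse B cells of 3 genotypes. They were taken as every filled line of each library's Sγ1 junction list with a strand of -1, and there were 738 of them among 4214 listed junctions in the immunoglobulin heavy chain locus (IgH). The libraries were made by high-throughput genome-wide translocation sequencing (HTGTS), which amplifies DNA from a fixed primer and reads what the bait is joined to. The groups were ATM RX/RX, ATM KO (genotype ATM-/-) and wild type, with 2 libraries each. The RX allele is R3057X, a stop codon that truncates the FATC domain at the C-terminal end of the ATM kinase. All mice were of the 129 strain, and all carried a preassembled IgH allele on that background. CD43- splenic B cells of every group were cultured with anti-CD40 at 1 ng/mL and IL-4 at 20 ng/mL, and DNA was taken at day 4. Nothing in the labels ties the 2 libraries of a group to separate animals, so the spread between them may be technical. The data are DNA junctions, and neither Atm nor markers of B cells are measured in them.

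Class switch recombination replaces the constant region of an antibody by joining breaks in Sμ, in front of the Cμ exons, to breaks in a downstream switch region. Activation-induced deaminase starts these breaks, and the switch regions are repetitive and rich in its target motifs. Most joins form by end joining with blunt ends or with short microhomology, in which a few bases are shared by both ends and cannot be assigned to either. ATM is the kinase that is activated at double-strand breaks and helps hold ends for joining. Sγ1 lies in front of Cγ1, and IL-4 with CD40 stimulation directs switching to IgG1 and IgE. Minus-orientation Sμ to Sγ1 junctions include the deletional joins that give IgG1, although orientation alone does not separate these from joins between the homologous chromosomes.

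The bait is shown first because every junction below begins with it. It was read 5′ to 3′ as the consensus of the bait parts of the listed IgH junctions, from the nested primer onward. The AflII site, at which germline product was cut before sequencing, is in capitals.
Sμ bait: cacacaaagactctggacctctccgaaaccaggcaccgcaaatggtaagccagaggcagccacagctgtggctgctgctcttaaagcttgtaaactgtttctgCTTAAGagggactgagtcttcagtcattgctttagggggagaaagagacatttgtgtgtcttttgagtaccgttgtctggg
These 184 bases lay on the minus strand of chromosome 12 from 114669074 to 114669257 in mm9sr, the authors' mm9 with the IgH switch region exchanged for 129 sequence. The same 184 bases had a single exact match in unmodified mm9, on the minus strand of chromosome 12 between 114664726 and 114664909, where the annotation holds no gene or exon. The site begins 83 bases past the end of the primer. Coordinates from here on are those of mm9sr unless mm9 is named. IgH is transcribed from the minus strand, so a lower coordinate in Sγ1 is farther from Sμ and nearer to Cγ1.

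For each genotype, the junction with the longest overlap of bait and prey alignments and the blunt junction nearest to the median coordinate are printed. Each line runs from bait to prey, 5′ to 3′. Capitals mark the microhomology, or in a blunt junction the last bait base and the first prey base.
ATM RX/RX, microhomology: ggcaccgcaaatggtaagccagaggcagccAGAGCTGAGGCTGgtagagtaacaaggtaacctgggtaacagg
ATM RX/RX, blunt: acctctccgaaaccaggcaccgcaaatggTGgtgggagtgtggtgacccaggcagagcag
ATM KO, microhomology: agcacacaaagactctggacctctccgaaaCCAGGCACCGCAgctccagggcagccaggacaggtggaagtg
ATM KO, blunt: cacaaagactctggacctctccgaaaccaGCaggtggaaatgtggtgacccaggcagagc
wild type, microhomology: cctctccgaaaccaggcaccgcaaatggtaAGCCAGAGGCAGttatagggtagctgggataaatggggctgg
wild type, blunt: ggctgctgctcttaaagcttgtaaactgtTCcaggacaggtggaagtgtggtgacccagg
The ATM RX/RX junction with 13 bp of overlap has its prey base at 114577213, that of ATM KO with 12 bp at 114576685, and that of wild type with 12 bp at 114568007. The capitals of the ATM RX/RX line differ from the bait at 2 positions, so the aligner tolerated mismatches there, whereas those of the ATM KO and wild-type lines match the bait exactly. Over all members, 507 of 519 overlaps were identical to the bait and 12 were not. The longest identical overlap measured 8 bp among ATM RX/RX junctions, 12 bp among those of ATM KO and 12 bp in wild type. The blunt junctions lie at 114572639 in ATM RX/RX, 114572347 in ATM KO and 114572206 in wild type.

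Depth limits what can be said of single libraries. The libraries held 1233 and 701 junctions in the ATM RX/RX pair, 414 and 1849 in ATM KO, and 904 and 507 in wild type, genome-wide. Of these, 155 and 101 were Sγ1 minus junctions in the ATM RX/RX pair, 51 and 211 in ATM KO, and 112 and 108 in wild type. ATM KO replicate 1 is thus the thinnest library. In ATM KO replicate 2 the authors counted 216 Sγ1 minus junctions, 5 of which had empty lines and were not analysed here. The members had 687 distinct coordinates, 642 of which were used once. Only 11 junctions matched a junction of another library in coordinate, bait end and overlap. No line was marked as a duplicate. Reads made by PCR and lacking molecular identifiers do not count separate molecules, and the exact 95% binomial (Clopper-Pearson) intervals given below therefore hold counting error alone.

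Sγ1 minus junctions were recovered in shares of IgH junctions that the 2 libraries per group did not separate from wild type. They were 18.1% and 19.5% of IgH junctions in the ATM RX/RX pair, 17.1% and 14.7% in ATM KO, and 15.5% and 27.6% in wild type. The mutant libraries lay within or close to the wide range set by the wild-type pair. Of all junctions, Sγ1 minus junctions made up 12.6% and 14.4% in the ATM RX/RX pair and 12.3% and 11.4% in ATM KO. In wild type they made up 12.4% and 21.3%. ATM KO lay below wild type there without overlap, just under wild-type replicate 1 (exact permutation p of 0.3333). As a share of all junctions the fitted log2 difference was -0.31 ± 0.30 (SE) for ATM RX/RX against wild type, with an adjusted p of 0.393 by edgeR's quasi-likelihood test over 10 region and orientation classes. For ATM KO against wild type it was -0.50 ± 0.30 (SE), with an adjusted p of 0.224 by edgeR. Between ATM RX/RX and ATM KO it was 0.19 ± 0.30 (SE), with an adjusted p of 0.702 by edgeR. In the background, 20% of the 10 classes were called for ATM RX/RX against wild type, 30% for ATM KO against wild type and 0% between the mutants.

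Within Sγ1, the minus orientation made up 65.1% and 62.7% of junctions in the ATM RX/RX pair, 76.1% and 62.6% in ATM KO, and 74.2% and 87.1% in wild type. ATM RX/RX lay below both wild-type libraries, with a mean of 63.9% ± 1.69 against 80.6% ± 9.14 in wild type (SD, n = 2 each). ATM KO averaged 69.4% ± 9.55 (SD, n = 2) and overlapped wild type. The two-sided exact permutation p was 0.3333 for ATM RX/RX against wild type, which is the smallest that 2 against 2 libraries can give, and 0.667 for ATM KO against wild type.

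Microhomology was longer in all 4 mutant libraries than in either wild-type library, in Sγ1 minus junctions and, by mean length, in the like classes compared below. Junctions with 2 bp or more of microhomology made up 67.1% and 59.4% in the ATM RX/RX pair, 56.9% and 52.6% in ATM KO, and 37.5% and 42.6% in wild type. All 4 mutant libraries lay above both wild-type libraries. The means were 63.3% ± 5.44 in ATM RX/RX, 54.7% ± 3.01 in ATM KO and 40.05% ± 3.60 in wild type (SD, n = 2 each). These are differences of 23.2 percentage points for ATM RX/RX and 14.7 for ATM KO, each larger than the pooled spread of 4.61 and 3.32 points. By exact permutation both comparisons gave a p of 0.3333, which no 2 against 2 libraries can go under. Both comparisons use the same wild-type libraries. With the 12 overlaps that differ from the bait set aside, the shares with 2 bp or more were 61.0% ± 5.01, 54.0% ± 4.01 and 38.7% ± 5.50 in ATM RX/RX, ATM KO and wild type (SD, n = 2 each).

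The shift was less plain when any microhomology was counted. Junctions with at least 1 bp were 77.4% and 73.3% in the ATM RX/RX pair, 64.7% and 70.1% in ATM KO, and 61.6% and 69.4% in wild type. ATM RX/RX did not overlap wild type, and ATM KO did. The exact permutation p was 0.3333 for ATM RX/RX and 0.667 for ATM KO against wild type. Among junctions with microhomology its mean length was 3.29 and 3.12 bp in the ATM RX/RX pair, 3.39 and 3.09 bp in ATM KO, and 2.83 and 2.19 bp in wild type. The median was 3 bp in each of the 4 mutant libraries and 2 bp in both wild-type libraries. The mean lengths of ATM RX/RX and ATM KO, 3.21 ± 0.12 and 3.24 ± 0.21 bp (SD, n = 2 each), differed by less than the spread between libraries, with an exact permutation p of 1.

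By exact length, the classes called by edgeR in ATM RX/RX were 1 bp, which fell, and 3 bp, which rose. Both classes moved the same way in ATM KO. The blunt and 4 bp classes of ATM RX/RX also lay apart from wild type without overlap, as given below. Overlaps of 3 bp numbered 34 and 23 in the ATM RX/RX libraries of 155 and 101 junctions, 9 and 38 in the ATM KO libraries of 51 and 211, and 10 and 11 in the wild-type libraries of 112 and 108. As shares these are 22.4% ± 0.592, 17.8% ± 0.256 and 9.56% ± 0.889 (SD, n = 2 each). Both mutants lay above wild type with no overlap. The 3 bp class rose in ATM RX/RX by 1.21 ± 0.26 (log2, SE), with an adjusted p of 0.00724 by edgeR. In ATM KO its log2 difference from wild type was 0.90 ± 0.27 (SE), with an adjusted p of 0.0739 by edgeR. Whether the effects of the 2 mutants differ is asked by the contrast between them, 0.31 ± 0.21 (log2, SE) with an adjusted p of 0.646 by edgeR. Each SE of an edgeR value is the size of the log2 difference divided by the square root of the test's F. For the structure classes given here these SEs are smaller than counting error alone gives, so they understate the uncertainty.

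Overlaps of 1 bp ran the other way. They were 10.3% and 13.9% of junctions in the ATM RX/RX pair, 7.84% and 17.5% in ATM KO, and 24.1% and 26.9% in wild type. The 1 bp class fell in ATM RX/RX by 1.11 ± 0.29 (log2, SE), with an adjusted p of 0.0137 by edgeR. In ATM KO its log2 difference was -0.70 ± 0.27 (SE), with an adjusted p of 0.096 by edgeR. These were the 2 classes of Sγ1 minus junctions called among 8 in ATM RX/RX against wild type, against 22.5% called over all 40 classes of the table. In ATM KO 0 of 8 were called by edgeR, with 2 at an unadjusted p under 0.05, against 7.5% called and 30% under that unadjusted p over the table. Between the mutants 0 of 8 were called by edgeR and 0 had an unadjusted p under 0.05, against 2.5% and 7.5% over the table. The fitted dispersion of this table was close to 0, so these p-values rest almost wholly on counting error. DESeq2 called 0 of 40 classes in each comparison, with 8, 3 and 1 at an unadjusted p under 0.05 (ATM RX/RX against wild type, ATM KO against wild type, ATM RX/RX against ATM KO). Some edgeR calls were lost when a library was left out. Without wild-type replicate 1 neither class was called in ATM RX/RX (adjusted p of 0.0928 for both), and the 1 bp class was not called without ATM RX/RX replicate 1 (0.0976) or wild-type replicate 2 (0.103).

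**Figure D1:**
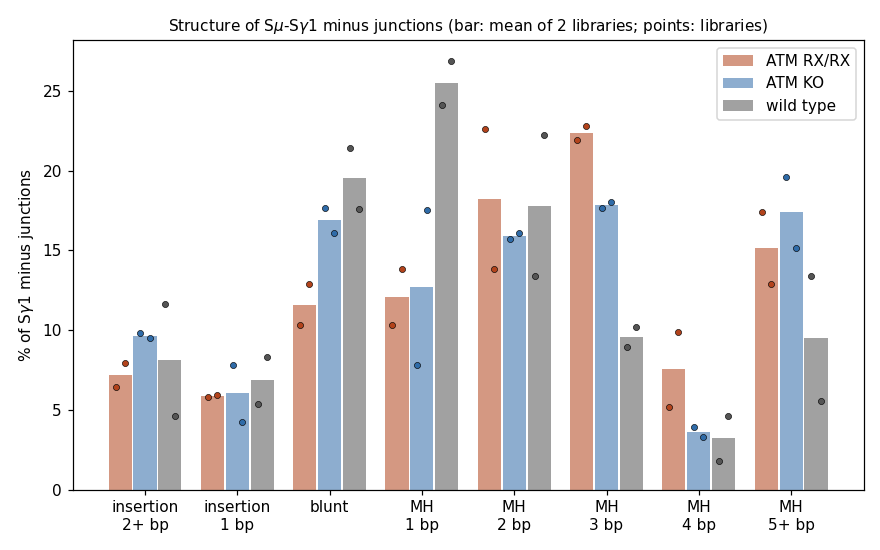
Percent of Sγ1 minus junctions (vertical axis) in each structure class (horizontal axis; MH, microhomology) for ATM RX/RX, ATM KO and wild type, with bars for the mean of 2 libraries and a point for each library. The 3 bp class averages 22.4% in ATM RX/RX, 17.8% in ATM KO and 9.56% in wild type, and the 1 bp class is highest in both wild-type libraries.

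The remaining classes did not pass the test. Blunt junctions were 10.3% and 12.9% in the ATM RX/RX pair, 17.6% and 16.1% in ATM KO, and 21.4% and 17.6% in wild type. The log2 difference of ATM RX/RX from wild type was -0.78 ± 0.26 (SE), with an adjusted p of 0.0624 by edgeR, and ATM KO overlapped wild type. The 2 bp class was near 18% in ATM RX/RX and in wild type, at 18.2% ± 6.17 and 17.8% ± 6.24, and 15.9% ± 0.302 in ATM KO (SD, n = 2 each). Overlaps of 4 bp were 5.16% and 9.90% in the ATM RX/RX pair, 3.92% and 3.32% in ATM KO, and 1.79% and 4.63% in wild type. In this class ATM RX/RX lay above wild type without overlap, with a log2 difference of 1.12 ± 0.55 (SE) and an adjusted p of 0.142 by edgeR, and ATM KO lay between the wild-type libraries. Overlaps of 5 bp or more were 17.4% and 12.9% in the ATM RX/RX pair, 19.6% and 15.2% in ATM KO, and 13.4% and 5.56% in wild type. In this class ATM RX/RX overlapped wild type, and ATM KO lay above it.

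Insertions were as frequent in the mutants as the spread allows one to tell. They made up 12.3% and 13.9% of junctions in the ATM RX/RX pair, 17.6% and 13.7% in ATM KO, and 17.0% and 13.0% in wild type. The exact permutation p was 0.667 against wild type for both mutants. The longest insertion was 24 and 22 bp in the ATM RX/RX pair, 25 and 18 bp in ATM KO, and 24 and 4 bp in wild type. Mean insertion length was 6.74 and 3.86 bp in the ATM RX/RX pair, 8.33 and 5.97 bp in ATM KO. In wild type it was 4.95 and 1.57 bp. By this measure ATM KO lay above wild type without overlap (exact permutation p of 0.3333), and ATM RX/RX overlapped it.

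The letters of the microhomologies come from the short bait stretch shown above. The commonest of 3 bp or more was CAG, the microhomology of 10 junctions in ATM RX/RX, 12 in ATM KO and 4 in wild type. AGG was used by 9, 4 and 1 junctions in ATM RX/RX, ATM KO and wild type. AGC was used by 9, 4 and 0, in the same groups. The commonest of 7 bp or more was CCAGGCA, found 7 times in ATM RX/RX, 3 times in ATM KO and 0 times in wild type. The next, GGCAGCCA of 8 bp, was found 0, 1 and 3 times in the same groups, so the longer strings do not all lean to the mutants. CCAGGCA begins in the aaaccaggcacc stretch of the bait, 7 bases of which are also found repeatedly in Sγ1 prey. An ATM RX/RX junction with it, at 114574971, had a match in ATM KO replicate 2 and is printed as an example with the shared bases in capitals.
ATM RX/RX, CCAGGCA: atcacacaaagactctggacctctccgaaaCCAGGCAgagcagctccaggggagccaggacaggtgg
These counts describe strings chosen by their frequency, so no test is given for them.

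Along Sγ1 the same clusters of junctions recurred in every genotype, with small differences in how they were filled. The Sγ1 list covers 30000 bp of chromosome 12, from 114558001 to 114588000. The median distance from its upstream edge was 14.8 and 14.5 kb in the ATM RX/RX pair, 15.6 and 15.6 kb in ATM KO, and 14.6 and 15.8 kb in wild type. Both ATM KO libraries lay between the wild-type ones, and ATM RX/RX replicate 2 lay just under them. ATM RX/RX lay below ATM KO without overlap, by 0.93 kb on average, with an exact permutation p of 0.3333. The bin with most junctions, 114568501 to 114569000, held 8.97% ± 0.0858 in ATM RX/RX, 9.64% ± 0.230 in ATM KO and 11.8% ± 0.982 in wild type (SD, n = 2 each). The next, 114571001 to 114571500, held 5.68% ± 3.83, 9.88% ± 0.105 and 9.62% ± 6.03 in ATM RX/RX, ATM KO and wild type (SD, n = 2 each). The other bins of the leading 5 begin at 114576501, 114577501 and 114577001. Together the 5 bins held 36.8% and 36.6% of junctions in the ATM RX/RX pair, 45.1% and 42.7% in ATM KO, and 37.5% and 43.5% in wild type. ATM RX/RX lay below both other genotypes without overlap, by less than 1 point from wild-type replicate 1. The densest 5 kb, from 114574301 to 114579300, held 42.6% and 45.5% in the ATM RX/RX pair, 45.1% and 42.7% in ATM KO, and 46.4% and 34.3% in wild type, and the exact permutation p was 1 in each of the comparisons. The densest 10 kb, from 114568501 to 114578500, held 74.8% and 79.2% in the ATM RX/RX pair, 74.5% and 72.0% in ATM KO, and 76.8% and 87.0% in wild type. ATM KO lay below wild type there without overlap (exact permutation p of 0.3333), and ATM RX/RX overlapped it. The lower quartile of the distance from the upstream edge was 11.0 and 10.5 kb in the ATM RX/RX pair, 10.5 and 10.9 kb in ATM KO, and 11.2 and 11.7 kb in wild type. Both mutants lay below wild type without overlap in this measure, each with an exact permutation p of 0.3333.

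None of the 19 tested bins of Sγ1 minus junctions was called by edgeR in any comparison, and 1, 0 and 1 of them had an unadjusted p under 0.05 for ATM RX/RX against wild type, ATM KO against wild type and ATM RX/RX against ATM KO. DESeq2 also called 0 of them. In the background, 3.28% of 61 bins were called for ATM RX/RX against wild type, and 0% in each of the other comparisons, while 16.4%, 18% and 6.56% had an unadjusted p under 0.05.

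**Figure D2:**
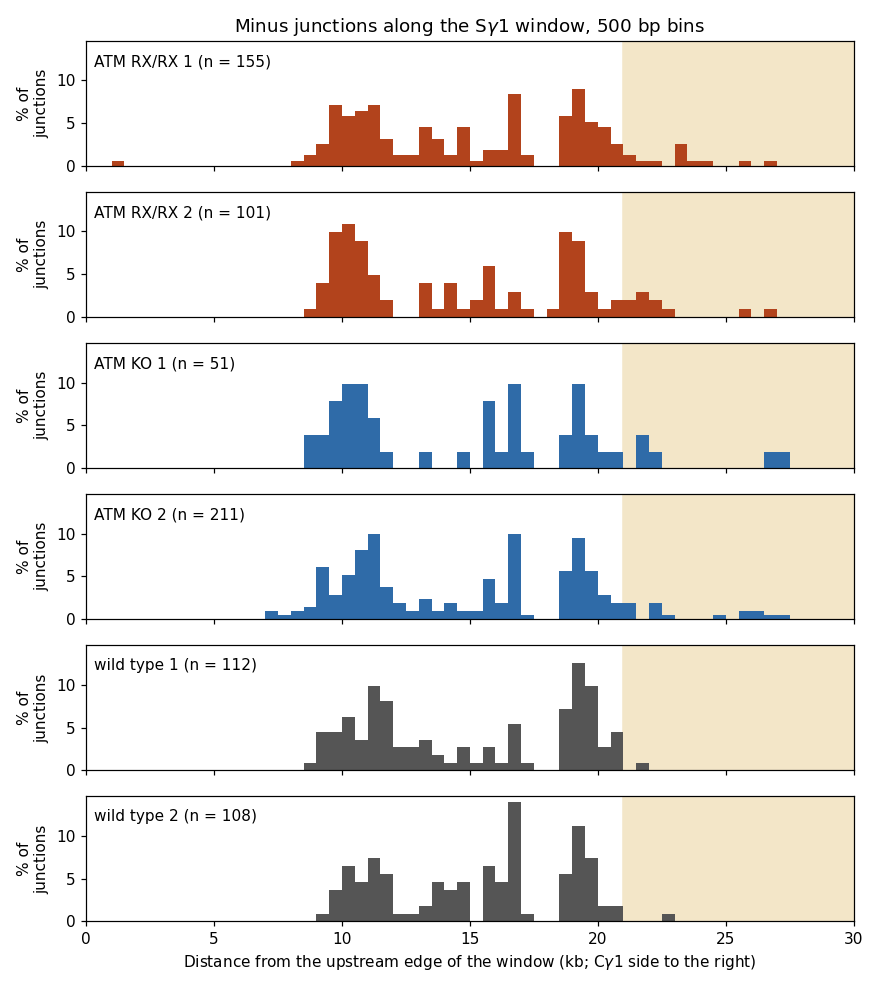
Percent of Sγ1 minus junctions per 500 bp bin (vertical axes) against distance from the upstream edge of the Sγ1 window in kb (horizontal axis), one panel per library, ATM RX/RX at the top, then ATM KO, then wild type. Clusters near 10 kb, 17 kb and 19.5 kb recur in the panels. The shaded 9 kb at the Cγ1 end holds 12 and 10 junctions in the ATM RX/RX pair, 5 and 16 in ATM KO, and 1 and 1 in wild type.

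At single-base resolution few positions were shared. No more than 6 coordinates held 3 junctions, and none held more. All 6 are listed because they tie: 114571180, 114571187, 114571202, 114577009, 114578088 and 114578472. The junctions at 5 of them came from 3 libraries each and used different bait ends or overlaps in at least 1 library. The 3 at 114578088 were alike, with a 4 bp overlap and the same bait end, and came from both ATM RX/RX libraries.

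The far end of the window held more junctions in the mutant libraries. In the 9 kb nearest Cγ1, from 114558001 to 114567000, 12 junctions came from ATM RX/RX replicate 1 and 10 from replicate 2, 5 and 16 from the ATM KO replicates, and 1 from each wild-type library. These are 7.74% (95% interval 4.06 to 13.1) and 9.90% (4.85 to 17.5) in ATM RX/RX. They are 9.80% (3.26 to 21.4) and 7.58% (4.40 to 12.0) in ATM KO, and 0.893% (0.0226 to 4.87) and 0.926% (0.0234 to 5.05) in wild type. Every mutant library lay above both wild-type libraries, although the intervals of single libraries overlap. The means were 8.82% ± 1.53 in ATM RX/RX, 8.69% ± 1.57 in ATM KO and 0.909% ± 0.0234 in wild type (SD, n = 2 each). The boundary was chosen after the values were seen, so no test is given, and no 500 bp bin of this stretch held the 10 junctions needed to enter the bin test. As with the shares above, both mutants are set against the same wild-type libraries. The 22 ATM RX/RX, 21 ATM KO and 2 wild-type junctions there all had distinct coordinates. Microhomology was present in 18 of 22 in ATM RX/RX, 14 of 21 in ATM KO and 2 of 2 in wild type.

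**Figure D3:**
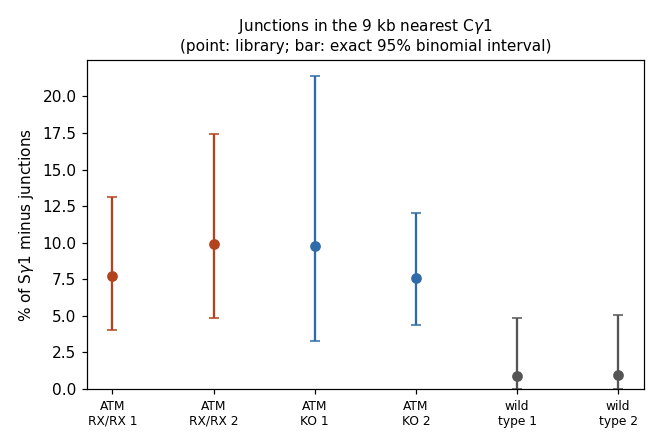
Percent of Sγ1 minus junctions in the 9 kb at the Cγ1 end of the window (vertical axis) for each library (horizontal axis). Points are libraries and bars the exact 95% binomial interval. The 4 mutant libraries sit between 7.58% and 9.90%, and both wild-type libraries are under 1%.

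The prey sequence places part of this far end in and past the Cγ1 gene itself. The first 40 prey bases of each junction were matched to mm9 without mismatches, over IgH from beyond Cγ1 to Sμ. Of 700 junctions with that many bases, 181 matched once, 74 several times and 445 not at all. What kept these from matching was not tested. In mm9, Ighg1, the gene of the IgG1 heavy chain constant region, lies on the minus strand of chromosome 12 from 114567187 to 114568734 and has 4 annotated exons. Of the junctions matched once, those within the gene or past its end were 4 among 31 and 1 among 32 in the ATM RX/RX pair, 2 among 12 and 6 among 57 in ATM KO, and 0 among 22 and 0 among 27 in wild type. Over both libraries these are 5 of 63 once-matched junctions from ATM RX/RX, 8 of 69 from ATM KO and 0 of 49 from wild type. Junctions without a single match were not placed, so these are not shares of all Sγ1 minus junctions. By the limit of 3 counts, the 0 of 49 allows a share of up to 6.12% of once-matched junctions, and its exact 95% interval reaches 7.25%. The wild-type junction nearest to the gene lay 68 bp in front of it. Such a join, if deletional, removes exons of Ighg1 or all of it. Whether the mutant and wild-type shares differ was not tested, because the question arose from the data.

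Only junctions matched once were placed, so others may lie in the gene. All 3 that were placed inside it were in exons, and they are printed with their microhomology in capitals. Those of ATM RX/RX replicate 1 fall in exon 3, at mm9 114567699 and 114567943, with 2 bp of overlap each. That of ATM KO replicate 2 falls in exon 1, at mm9 114568656, with 3 bp.
ATM RX/RX, exon 3: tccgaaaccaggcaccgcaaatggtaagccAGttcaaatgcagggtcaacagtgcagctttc
ATM RX/RX, exon 3, second: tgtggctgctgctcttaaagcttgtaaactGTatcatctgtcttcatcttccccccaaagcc
ATM KO, exon 1: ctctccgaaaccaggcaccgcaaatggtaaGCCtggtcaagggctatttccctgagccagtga
The other 10 lay past the gene, from 249 to 3201 bp beyond its end, 3 from ATM RX/RX and 7 from ATM KO.

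Plus-orientation Sγ1 junctions were few in the same stretch. Among 83 and 60 such junctions in the ATM RX/RX libraries 6 and 0 lay there, among 16 and 126 in ATM KO 0 and 4, and among 39 and 16 in wild type 0 and 0. The counts are too few to set the orientations apart.

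The bait ends were alike in the 3 genotypes. The last bait base lay a median of 34 and 35 bases past the primer in the ATM RX/RX pair, 34 and 36 in ATM KO, and 35 and 34 in wild type. All junctions ended between 10 and 105 bases past it, and 1, in ATM KO replicate 2, lay past the AflII site. The digestion cuts product that still holds that site, so ends beyond it are under-sampled in every library. The exact permutation p of the median was 1 in each of the 3 comparisons. None of the 3 bait end bins of 50 read positions was called by edgeR, with 0, 1 and 0 at an unadjusted p under 0.05 for ATM RX/RX against wild type, ATM KO against wild type and ATM RX/RX against ATM KO. Of 15 such bins over all classes, 0% were called in each comparison and 13.3% had an unadjusted p under 0.05 for ATM KO against wild type, while DESeq2 called 0 of the 3.

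The ends farthest from the primer were the least alike. Junctions whose bait ended within the first 100 read bases were 92.3% and 92.1% in the ATM RX/RX pair, 96.1% and 89.6% in ATM KO, and 96.4% and 95.4% in wild type. ATM RX/RX lay below wild type without overlap, and ATM KO overlapped it, with replicate 2 the lowest of all libraries. The exact permutation p was 0.3333 and 0.667 for ATM RX/RX and ATM KO against wild type.

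**Figure D4:**
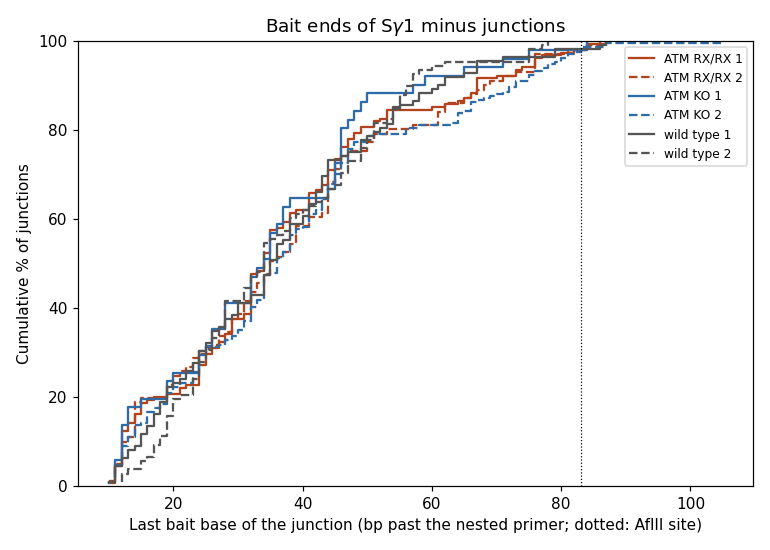
Cumulative percent of Sγ1 minus junctions (vertical axis) by the last bait base in bases past the nested primer (horizontal axis), one line per library, solid for replicate 1 and dashed for replicate 2; the dotted line marks the AflII site. The 6 lines run together, with medians of 34 to 36 bases.

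Some bait positions were used again and again. The most used lay 12 bases past the primer, where the bait reads ccagg, with 35 junctions. It took 7.74% and 4.95% in the ATM RX/RX pair, 7.84% and 4.27% in ATM KO, and 1.79% and 2.78% in wild type. Next came 34 bases past it, where the bait reads cagag, with 33 junctions, and 32 bases past it, where it reads gccag, with 31. The others of the 5 commonest ends were 24 bases past the primer, at aatgg with 27 junctions, and 44 bases past it, at cacag with 26. All 5 stopped at an AG or GG pair. These positions were picked by their frequency and carry no test.

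In most libraries Sγ1 minus junctions had a longer mean microhomology than the like classes. The exception was wild-type replicate 2, at 2.19 bp against 2.41 bp in Sμ minus. The mean length exceeded that of Sγ1 plus junctions by 0.70 bp, in 6 of 6 libraries, and that of Sε minus junctions by 0.61 bp, in 6 of 6 libraries. It exceeded that of Sμ minus junctions by 0.34 bp, in 5 of 6 libraries. The two-sided exact sign-flip permutation p was 0.03125 for Sγ1 plus, the smallest that 6 libraries can give, and 0.117 after adjustment over 15 tests. It was the same for Sε minus, and 0.0625 for Sμ minus (adjusted 0.188). None of the 15 tests passed 0.05 after adjustment. The share with any microhomology did not separate the classes, at 69.4% ± 5.70 in Sγ1 minus, 67.2% ± 6.66 in Sγ1 plus, 68.7% ± 8.39 in Sμ minus and 64.8% ± 10.1 in Sε minus (SD, n = 6 libraries each). In each like class too, every mutant library had a longer mean than both wild-type libraries. In Sμ minus junctions it was 2.77 and 2.86 bp in the ATM RX/RX pair, and 2.82 and 2.75 bp in ATM KO. In wild type it was 2.30 and 2.41 bp. Some libraries held only 16 or 17 junctions of Sγ1 plus or Sε minus.

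**Figure D5:**
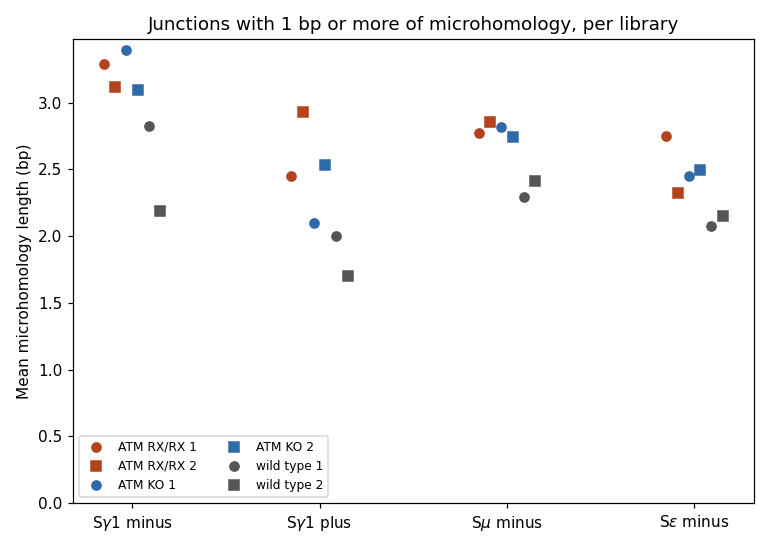
Mean microhomology length in bp (vertical axis) over junctions with at least 1 bp of it, in 4 junction classes (horizontal axis), with a point for each library coloured by genotype. Within each library the Sγ1 minus value exceeds the Sγ1 plus and Sε minus values, by means of 0.70 and 0.61 bp.

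The bait ends of Sγ1 minus junctions lay nearer to the primer than those of Sμ minus junctions, by a median of 2.33 bases on average, and nearer than those of Sε minus junctions, by 4.08 bases. This held in 6 of 6 libraries for both, with an exact sign-flip permutation p of 0.03125 each and 0.117 after adjustment. Insertions were 14.6% ± 2.21 in Sγ1 minus and 19.2% ± 2.87 in Sε minus (SD, n = 6 libraries each), lower in 5 of 6 libraries, with an exact permutation p of 0.125 (adjusted 0.313).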

How the data were processed

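Per the labels' protocols, genomic DNA was amplified linearly from a biotinylated Sμ primer and by nested PCR, cut with AflII, and sequenced on a MiSeq. Coordinates inside IgH are those of mm9sr, per the series' design. Per the submitters' processing notes, reads were handled with Bowtie2 and mm9; the version was not given in the sources used here. The junction lists, deposited by the authors, give the coordinate, strand and read positions of the alignments of each junction, and the deposited counts per region and per bin were used as a check on them. The gap, the prey start minus the bait end minus 1, was an insertion if positive, blunt at 0 and microhomology if negative. In 5 libraries the gap lengths equalled the authors' own bins.

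The members and lists were chosen with earlier results of these data known. Groups were compared with exact permutation tests over libraries, like classes with exact sign-flip tests. Counts of junctions were tested with edgeR 4.0.16 (R 4.3.3; quasi-likelihood, 1 common dispersion per table, 6 libraries in 1 fit, Benjamini-Hochberg over each table, 0.05) in 10 region and orientation classes, 40 structure classes, 61 bins of 500 bp and 15 bait end bins with at least 10 junctions. Sε plus was left out of the structure table, since ATM KO replicate 1 had none. Offsets were library totals or class totals. The SE given with an edgeR log2 difference is the size of that difference divided by the square root of the test's F. The fits were tested on simulated data. Alternatives were DESeq2 1.42.0, a replicate block, TMM factors, other bins and minimums, and leaving out libraries or repeated junctions. Named were all structure classes, the 5 fullest position bins, coordinates with 3 or more junctions in 2 or more libraries, and the longest microhomology and the most central blunt junction per genotype. Other named junctions, strings and the 9 kb stretch were chosen after their values were seen.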

Additional observations from a re-analysis of the deposited data

How the results depend on the processing

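The 75 results were recomputed under 639 alternatives in all. The share with 2 bp or more of microhomology kept its direction in all that were run on it: leaving out a library gave 19.4 to 27.1 points for ATM RX/RX and 12.1 to 17.2 for ATM KO against wild type. The share in the 9 kb at the Cγ1 end of the window exceeded wild type without single libraries too. The excess was 6.83 to 8.99 points for ATM RX/RX and 6.67 to 8.89 for ATM KO. With 8 kb in place of 9 kb it was 4.92 and 5.32 points.

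Whether the replicate numbers of the labels tie libraries together could not be settled. Differences between replicates 1 and 2 correlated between groups by -0.18 to 0.24, over 8 structure classes or 19 bins. With so few classes and such low counts, this check could miss a shared effect. With a replicate block both the 1 bp and the 3 bp class of ATM RX/RX stayed past the threshold (log2 -1.07, adjusted p 0.0302, and 1.22, adjusted p 0.0204, by edgeR). The block moved the count of called structure classes over the whole table to 1 for ATM KO against wild type and 0 for ATM RX/RX against ATM KO, and that of bait end bins to 1 for ATM KO against wild type.

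DESeq2 called 0 of the 40 structure classes in each comparison and 0 bins in place of 2 for ATM RX/RX against wild type; its values for the 1 bp and 3 bp classes there were -1.09 (adjusted p 0.293) and 1.23 (adjusted p 0.236), and the cause was not tested. TMM factors on library totals, which measure classes per library and not within Sγ1, gave 21 called structure classes over the whole table for ATM RX/RX and 15 for ATM KO against wild type, 1 of them in Sγ1 minus junctions for ATM KO. With these factors the 3 bp class of ATM RX/RX was not called (log2 0.74, adjusted p 0.184 by edgeR), its blunt class was (-1.23, 0.0201), and so was the 1 bp class of ATM KO (-1.48, 0.00388). IgH totals as offset gave 4 called region classes for ATM RX/RX. Bins of 1000 bp gave 1 and 2 called bins for ATM RX/RX and ATM KO against wild type, and bait bins of 25 bp gave 2 for ATM KO, over all classes; 0 of these were bins of Sγ1 minus junctions. The minimum of 10 junctions removed no structure class.

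Some differences turned sign under another measure, and most of these were small beside the spread. Among them were also differences without overlap, which thus depend on the measure chosen. The median position of ATM RX/RX minus ATM KO was -0.93 kb. The share in the first 100 read bases for ATM RX/RX minus wild type was -3.73 points. Without insertions of 2 bp or more the insertion share of ATM KO minus wild type was -0.695 points. The mean in place of the median coordinate gave -0.0951 kb for ATM KO minus wild type and 0.00685 kb for ATM RX/RX minus ATM KO, and the mean bait end gave 0.422 bases for the last pair. The densest 10 kb gave -4.89 and -8.64 points for ATM RX/RX and ATM KO minus wild type, and leaving out matched junctions gave -1.21 points in the densest 5 kb for ATM RX/RX minus ATM KO. The first 50 read bases gave 1.53, 1.22 and 0.300 points for ATM RX/RX minus wild type, ATM KO minus wild type and ATM RX/RX minus ATM KO.

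Leaving out each library in turn gave these ranges. For ATM RX/RX minus wild type, the fitted abundance ran from -0.66 to 0.12 (log2), the share of IgH from -8.79 to 3.30 points, insertions from -3.90 to 0.0968 points, the median position from -1.17 to 0.0765 kb and the densest 5 kb from -2.37 to 9.80 points. For ATM KO minus wild type, the share of IgH ran from -11.7 to 0.390 points, any microhomology from -2.02 to 5.82 points, insertions from -1.27 to 2.73 points, the median position from -0.242 to 1.01 kb, the densest 5 kb from -2.55 to 9.62 points, the median bait end from -0.5 to 1.5 bases and the first 100 read bases from -6.33 to 0.179 points. For ATM RX/RX minus ATM KO, the minus share of Sγ1 ran from -12.2 to 1.32 points, mean microhomology from -0.187 to 0.112 bp, the densest 5 kb from -1.30 to 1.67 points, the median bait end from -1.5 to 0.5 bases and the first 100 read bases from -3.91 to 2.60 points. Any microhomology against Sμ minus ran from -1.41 to 3.04 points. Called region classes numbered 0 to 3 for each mutant against wild type, structure classes 1 to 11 for ATM RX/RX, 0 to 3 for ATM KO and 0 to 0 between the mutants, those of Sγ1 minus junctions 0 to 2 for ATM RX/RX, and position bins 0 to 2 for ATM RX/RX against wild type and 0 to 1 between the mutants. The 1 bp and 3 bp classes of ATM RX/RX ran from -1.29 to -0.87 and from 1.12 to 1.31 (log2).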

Other observations

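Among the first 10 prey bases of Sγ1 minus junctions, the string CAGG was present in 37.7% of junctions on average, against 28.5% in bases 31 to 40 of the same reads, and it was more frequent in 5 of 6 libraries. The two-sided exact sign-flip permutation p was 0.0625, and 0.188 after adjustment over the strings tested. AGCT, a target motif of activation-induced deaminase, was present in 13.3% and 11.9% of the 2 windows (exact permutation p of 0.719), and GGGG in 8.93% and 8.22% (exact permutation p of 0.781). Strings and windows were chosen after the data were seen. The windows include microhomology bases, which also belong to the bait, and their part in the difference was not tested.

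Of the 11 junctions that matched one in another library, 7 came from ATM RX/RX, 4 from ATM KO and 0 from wild type.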
